A study of Mus musculus with 3 samples.

Results

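The zinc finger genes are those with a symbol that begins with Zfp, Zbtb, Zscan, Zkscan, Zc3h, Zdhhc, Zmy, Zfand or Zfx in the platform annotation. The rule reads the symbol alone. The genes comprise 177 of the 12336 probes with 1 gene symbol, or 125 of 7984 genes. By prefix there were 81 Zfp genes, 12 Zbtb, 1 Zscan, 5 Zkscan, 7 Zc3h, 10 Zdhhc, 5 Zmy and 4 Zfand genes, and 0 Zfx genes. The samples were 3 arrays of 2 colours from mouse, each with purchased liver total RNA in the Cy5 channel and Universal Mouse Reference RNA (UMRR) in the Cy3 channel. UMRR is sold as a mixture of RNAs of several mouse cell lines, made to be a common standard. The labels state no strain, age, sex or treatment for either RNA, and both were amplified in 1 round to cRNA. Each RNA has 1 catalogue number, so the arrays repeat 1 pair of RNAs, and their spread, which every p-value below measures, may be technical.

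A zinc finger is a small protein fold held by a zinc ion. In the C2H2 type, found in Zfp, Zbtb, Zscan and Zkscan proteins, tandem fingers usually read DNA, and an added KRAB, BTB or SCAN domain recruits repressors or pairs the proteins with each other. The CCCH fingers of most Zc3h proteins bind RNA. In Zdhhc proteins the cysteine-rich domain is an enzyme that attaches palmitate to other proteins, Zmym and Zmynd proteins are mostly chromatin cofactors, and Zfand proteins carry AN1 fingers and act in protein quality control. A shared prefix is thus no proof of a shared function. Zbtb11os1 is a long noncoding RNA on the opposite strand of Zbtb11, Zbtb8os encodes archease, a helper of the tRNA ligase, Zfpl1 is a Golgi membrane protein, Zfp185 a LIM protein of the actin cytoskeleton, and Zc3hc1 an F-box-like protein without CCCH fingers.

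A deposited value is read as the log2 ratio of liver over UMRR, so that 1 stands for 2-fold higher in liver. The base is not stated, and if natural logs were deposited each value would be too small by a factor of 1.44. The 4 measured hepatocyte markers stood between 4.01 and 5.17, the direction that liver in the Cy5 channel gives. An exact 0 was taken as no ratio. It was listed for 30.5%, 22.0% and 31.1% of the zinc finger probes on arrays 1, 2 and 3, against 30.3%, 21.4% and 27.8% of all named probes. A ratio on all 3 arrays was available for 109 of the 177 zinc finger probes (61.6%), against 62.7% of named probes, and these 109 gave 82 genes. Of the other genes, 16 had a probe measured on 2 arrays at best, 10 on 1 array and 17 on 0 arrays. The 82 genes entered 1 limma fit with the other named genes, 5520 in all, and past the test below means an adjusted p under 0.05 in that fit. All arrays had the same dye orientation, so dye bias is part of each ratio. The number of arrays limits the precision.

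Most measured zinc finger genes stood near a ratio of 1, and those that moved were more often lower than higher in liver. Of the 82 genes, 52 passed the test in limma with Benjamini-Hochberg adjustment (63.4%), beside 64.0% of all 5520 genes. Lower in liver were 37 zinc finger genes (45.1%), against 33.9% of all genes, and higher were 15 (18.3%), against 30.1% of all genes. The median log2 ratio was -0.20 for the 82 genes and -0.028 for all genes. Array by array the median was -0.26, -0.23 and -0.21 for zinc finger genes, and the difference from the median of all genes on the same array was -0.21 ± 0.011 (SD, n = 3 arrays). These are descriptions of 1 pair of RNAs, with no test of the list.

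Large ratios were few. Past the test and 2-fold or more apart were 14 zinc finger genes (17.1%), against 24.9% of all genes, with 3 higher (all genes 11.7%) and 11 lower (all genes 13.2%). The log2 ratio lay within 0.5 of 0 for 49 of the 82 (59.8%), against 51.4% of all genes. Only Zfpm2 was at least 4-fold apart, 1 of 82, against 7.25% of all genes. The sign was shared by all 3 arrays for all but 16 of the 82 genes, and 79.5% of all genes had 1 sign.

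**Figure D1:**
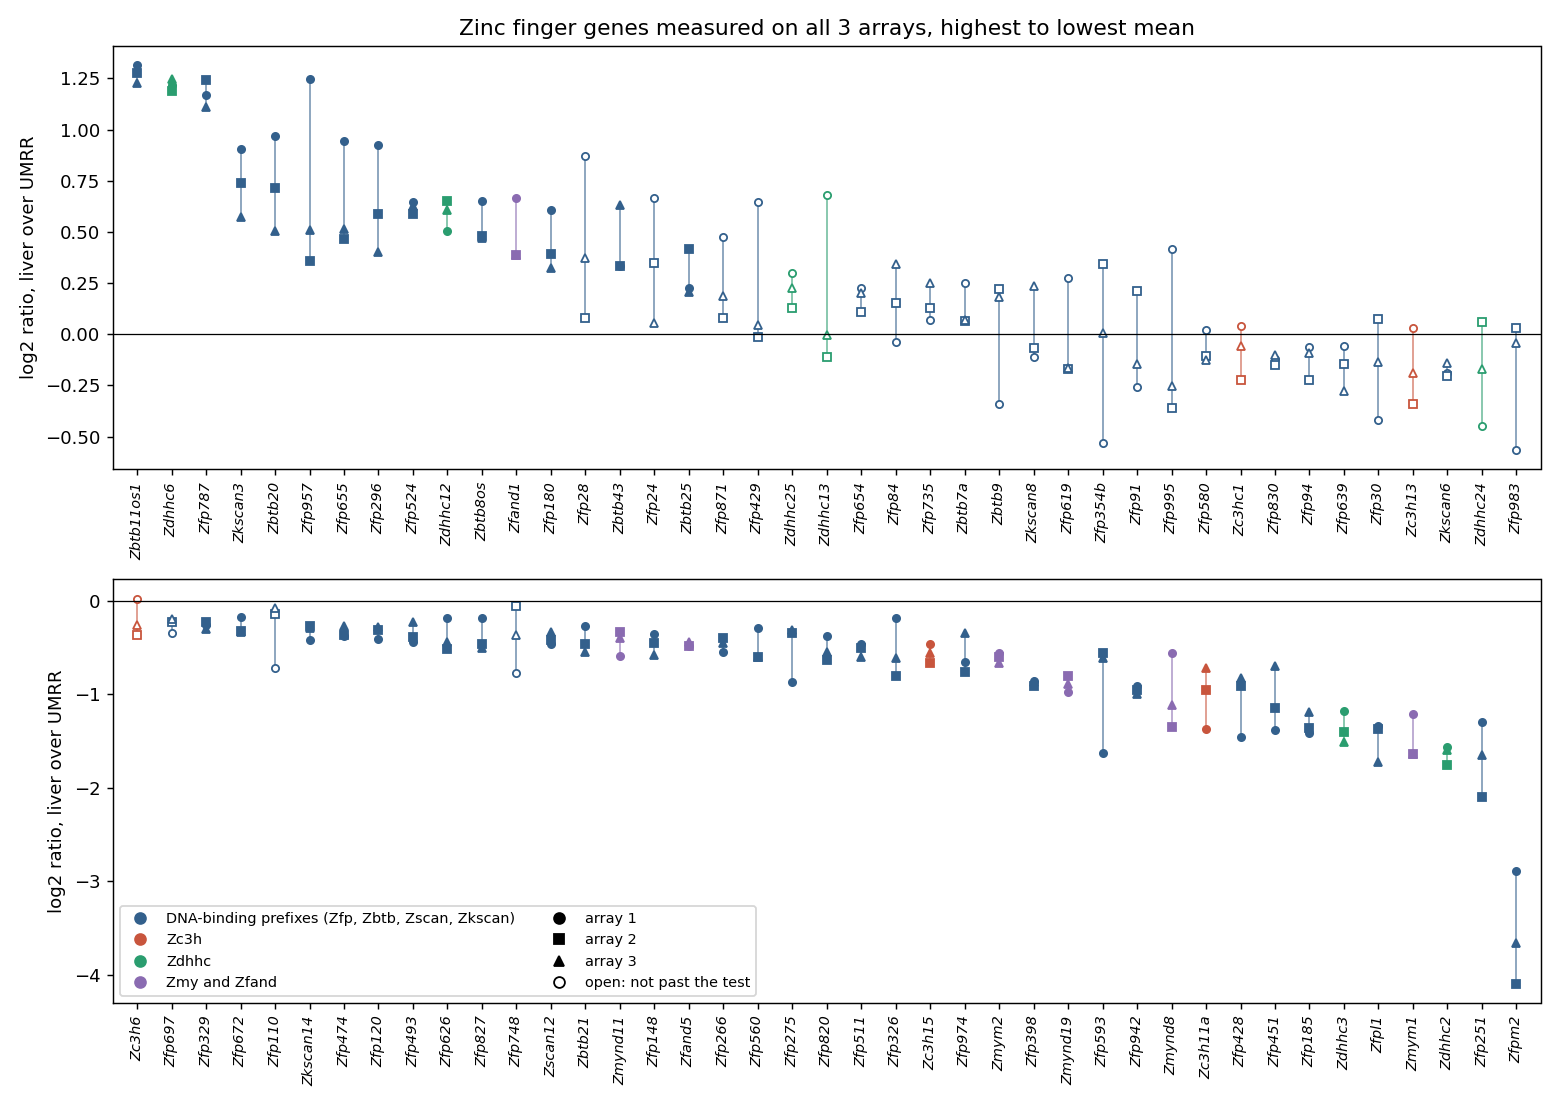
Log2 ratio of liver over UMRR (vertical axis) on each array for the 82 zinc finger genes measured on all 3 arrays, from the highest mean (top left) to the lowest (bottom right). The scale differs between panels. Zfpm2 stands apart at the low end with a mean of -3.55, and no gene reaches 1.5 at the high end.

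Among the DNA-binding families and their cofactors, Zfpm2 had the lowest ratio. Zfpm2, also called FOG2, is a cofactor that binds GATA transcription factors and does not itself read a fixed DNA site. Its log2 ratios were -2.90, -4.10 and -3.66 on arrays 1, 2 and 3. All arrays were far below 0, with a mean of -3.55 ± 0.61 (SD, n = 3), or 11.7-fold lower in liver (limma, adjusted p = 3.42e-05). Zfpm2 was read by 1 probe, which was dropped in the alternative without probes of high SD. Gata6, one of the GATA factors and no zinc finger gene by this rule, stood at -2.92, -3.30 and -3.39. Zfpm1, the paralog of Zfpm2 known from blood cell development, had a ratio on array 2 only (-1.28).

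Zfp251 followed at -1.30, -2.10 and -1.65, with a mean of -1.68 ± 0.40 (SD, n = 3; limma, adjusted p = 0.000196). Zfpl1, the Golgi protein, was at -1.34, -1.37 and -1.73, and the actin-associated Zfp185 at -1.41, -1.36 and -1.19. Zfp451, a SUMO ligase, stood at -1.38, -1.14 and -0.70. For each of these 4 genes every array was below -0.5. Zfp428 (-1.06 ± 0.34) completed the Zfp genes that were at least 2-fold lower. Of the 50 measured Zfp genes, 24 were lower in liver (all genes 33.9%), 6 were higher (all genes 30.1%) and 20 did not pass. The median was -0.27.

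At the high end of the Zfp genes stood Zfp787, with 1.17, 1.24 and 1.11 on the 3 arrays. Its mean of 1.17 ± 0.067 (SD, n = 3) was 2.25-fold higher in liver (limma, adjusted p = 8.92e-05), and no array came near 0. The next, Zfp957, was less even, at 1.25 on array 1 against 0.36 on array 2 and 0.51 on array 3. Zfp655 had the same pattern (0.94, 0.46 and 0.51), as did Zfp296, a gene known from pluripotent cells (0.92, 0.59 and 0.40). All 3 passed the test with all arrays, with adjusted p-values of 0.0145, 0.00474 and 0.00482 in limma. Without moderation of the variance they did not (adjusted p = 0.181, 0.0946 and 0.0955).

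Of the 8 measured genes with the Zbtb prefix, 5 were higher in liver (all genes 30.1%), 1 was lower (all genes 33.9%) and 2 did not pass, and the median was 0.36 against -0.028 for all genes. Of the 5 higher ones, Zbtb11os1 and Zbtb8os do not encode BTB proteins. The other 6 carry a BTB domain, and their median was 0.21. Of them 3 passed as higher in liver and 1 as lower. The noncoding RNA Zbtb11os1 stood at 1.31, 1.27 and 1.23, the highest mean of the 82 (1.27 ± 0.045, SD, n = 3; limma, adjusted p = 6.12e-05). It lies on the strand opposite to Zbtb11. The strand of its probes and their overlap with Zbtb11 were not checked, so a part of Zbtb11 RNA in its ratio was not tested. Zbtb8os, which encodes archease, was at 0.65, 0.48 and 0.47.

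Zbtb20, a repressor of alpha-fetoprotein in the liver after birth, was higher in liver with 0.97, 0.71 and 0.51. Its mean of 0.73 ± 0.23 (SD, n = 3) passed the test (limma, adjusted p = 0.00208). The adjusted p was 0.0689 with unmoderated variances. Its 3 measured probes differed in size. Probe 17274 was at 1.70, 1.35 and 0.97, probe 2825 at 0.83, 0.56 and 0.46 and probe 8196 at 0.38, 0.23 and 0.090. All 9 values were above 0, but the means of the probes ran between 0.23 and 1.34, and probe 8196 did not pass on its own (adjusted p = 0.0945 in the fit on single probes). A further probe, 15746, was at exact 0 on all arrays.

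The other Zbtb genes with a call were Zbtb43 (0.43 ± 0.17) and Zbtb25 (0.28 ± 0.12) on the liver side and Zbtb21 (-0.43 ± 0.14) on the UMRR side. Each lost its call when array 3 was left out (adjusted p = 0.145, 0.162 and 0.117), and Zbtb25 and Zbtb21 also without array 2 (adjusted p = 0.265 and 0.0631). Zbtb7a, a factor of lymphoid and red cell development, was at 0.25, 0.065 and 0.068 and did not pass (limma, adjusted p = 0.282). Zbtb9 had both signs, with -0.34 on array 1 against 0.22 and 0.18 on arrays 2 and 3.

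Genes with the Zscan or Zkscan prefix were few. Zkscan3, a repressor of autophagy genes in human cells, was higher in liver at 0.90, 0.74 and 0.58, a mean of 0.74 ± 0.16 (SD, n = 3; limma, adjusted p = 0.00116). Zscan12, its immediate neighbour among the protein-coding genes of chromosome 13 in the reference, was lower at -0.46, -0.42 and -0.33. The 2 genes thus did not overlap on any array. Zkscan14 was lower at -0.42, -0.27 and -0.29, and its call was lost once probes measured on only 2 arrays were added (-0.083, adjusted p = 0.575). The calls of Zscan12 and Zkscan14 also ended when array 2 was left out (adjusted p = 0.0604 and 0.0841) or array 3 (adjusted p = 0.0633 and 0.134). Zkscan6 and Zkscan8 did not pass.

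Zkscan1, whose RNA in human liver is known to form a circular RNA, would have been the highest of the group. It was at 2.10 and 1.77 on arrays 2 and 3 and at exact 0 on array 1. With probes on 2 arrays let in, its mean of 1.93 ± 0.23 (SD, n = 2) passed in that limma fit (adjusted p = 0.000432). At the other end Zfp991 stood at -2.03 and -1.98 on arrays 2 and 3 and at exact 0 on array 1 (mean -2.00 ± 0.034, SD, n = 2, adjusted p = 0.000227). Zfand6 had 1.17 and 0.85 on arrays 1 and 2 and exact 0 on array 3. Of the 16 zinc finger genes that this setting added, 5 were higher in liver, 3 were lower and 8 did not pass. Of all 809 genes it added, 47.0% passed, 19.5% as higher and 27.4% as lower.

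The 5 measured genes with the Zc3h prefix had means between -1.01 and -0.081. Of these, 2 were lower in liver (all genes 33.9%) and 3 did not pass. The median was -0.20, and -0.38 over the 4 genes left without Zc3hc1, which has no CCCH fingers. Zc3h11a, a factor of mRNA export, stood at -1.37, -0.95 and -0.72, or 2.02-fold lower (limma, adjusted p = 0.00108). Zc3h15, which binds the GTPase Drg1, was at -0.46, -0.67 and -0.56 (adjusted p = 0.00260). Both genes were below 0 on every array.

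Zc3h13, a member of the complex that writes N6-methyladenosine on RNA, was at 0.030, -0.34 and -0.19 and did not pass (limma, adjusted p = 0.221). Zc3h6 was at 0.024, -0.36 and -0.26, and Zc3hc1 at 0.039, -0.23 and -0.058. For all 3 genes array 1 was slightly above 0 and arrays 2 and 3 were below it. Without array 1, Zc3h13 and Zc3h6 passed as lower in liver, with adjusted p-values of 0.0232 and 0.0107. Zc3hav1, an antiviral protein that binds viral RNA, and Zc3h8 were at exact 0 on all arrays.

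The Zdhhc acyltransferases stood on both sides. Of 7 measured, 2 were higher in liver (28.6%, all genes 30.1%), 2 were lower (28.6%, all genes 33.9%) and 3 did not pass. The genes had a median absolute log2 ratio of 0.59 against 0.48 for all genes. Zdhhc6, an enzyme of the endoplasmic reticulum that palmitoylates calnexin, was at 1.22, 1.19 and 1.25. Its mean of 1.22 ± 0.031 (SD, n = 3) was 2.33-fold higher in liver (limma, adjusted p = 7.03e-05), and its measured probes stood at 1.08 and 1.35. Zdhhc12 was also higher, at 0.51, 0.65 and 0.61. In both, all arrays lay above 0.5.

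On the UMRR side stood Zdhhc2 and Zdhhc3, known from neurons for palmitoylating PSD-95 and a subunit of GABA receptors. Zdhhc2 was at -1.57, -1.76 and -1.60, or 3.12-fold lower in liver (-1.64 ± 0.10, SD, n = 3; limma, adjusted p = 2.73e-05). Zdhhc3 was at -1.18, -1.40 and -1.52, or 2.57-fold lower (-1.36 ± 0.17; adjusted p = 8.55e-05). The ranges of these genes and of Zdhhc6 were more than 2 log2 units apart. The probes of Zdhhc2 stood at -2.07 and -1.22 and those of Zdhhc3 at -2.13 and -0.60, all below 0. Zdhhc25 (0.22 ± 0.085), Zdhhc13 (0.19 ± 0.43) and Zdhhc24 (-0.19 ± 0.25) did not pass, and Zdhhc13 was above 0 on array 1 only.

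By median the families compared as follows. The DNA-binding prefixes together had 63 measured genes, with a median of -0.18. Of these, 12 were higher (19.0%, all genes 30.1%), 27 lower (42.9%, all genes 33.9%) and 24 not past the test. The share called was 61.9%, against 64.0% of all genes. Without Zbtb8os, Zbtb11os1, Zfpl1 and Zfp185, which do not encode C2H2 proteins, 10 of 59 were higher and 25 lower. The share called was then 59.3%, and the median was again -0.18. Zc3h stood at -0.20 (-0.38 without Zc3hc1) and Zdhhc at 0.19. Taken per array, the median of the DNA-binding families minus that of Zc3h was -0.21, 0.19 and 0.092, with both signs. Without Zc3hc1 and the 4 genes just named it was 0.030, 0.34 and 0.24, above 0 on each array, so the sign on array 1 turned on which genes were counted. The median of the DNA-binding families minus that of Zdhhc was -0.49, -0.23 and -0.16, a mean of -0.29 ± 0.17 (SD, n = 3). That of Zc3h minus that of Zdhhc was -0.27, -0.42 and -0.25, and -0.52, -0.57 and -0.40 without Zc3hc1. The Zdhhc median is the value of Zdhhc13, the middle of 7 genes, and without array 1 it was -0.055. Against all genes, the median of the DNA-binding families was lower by a similar amount on each array (-0.15, -0.14 and -0.16). No test of families was made.

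The 5 Zmy genes were all lower in liver by the mean of their probes, against 33.9% of all genes. Zmym1 was at -1.21, -1.63 and -1.64 (mean -1.50 ± 0.24, SD, n = 3; limma, adjusted p = 9.77e-05), and Zmynd8, a reader of acetylated histones, at -0.55, -1.35 and -1.11. Zmynd19, Zmym2 and Zmynd11, a reader of methylated histone H3.3, stood at -0.89, -0.61 and -0.44 on average. All 3 array values of each of the 5 genes were below 0, though Zmynd11 lost its call without array 3 (adjusted p = 0.0583). The probes of Zmynd8 differed, with means of -1.47 and -0.54 for those measured on 3 arrays, while probe 9405 was at 0.14 and 0.018 on arrays 2 and 3 and at exact 0 on array 1. A further probe of Zmym1, 9831, had a ratio on array 2 only (0.043). The Zfand genes went both ways, with Zfand1 at 0.66, 0.39 and 0.38 and Zfand5, which binds ubiquitin and the proteasome, at -0.49, -0.48 and -0.44.

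**Figure D2:**
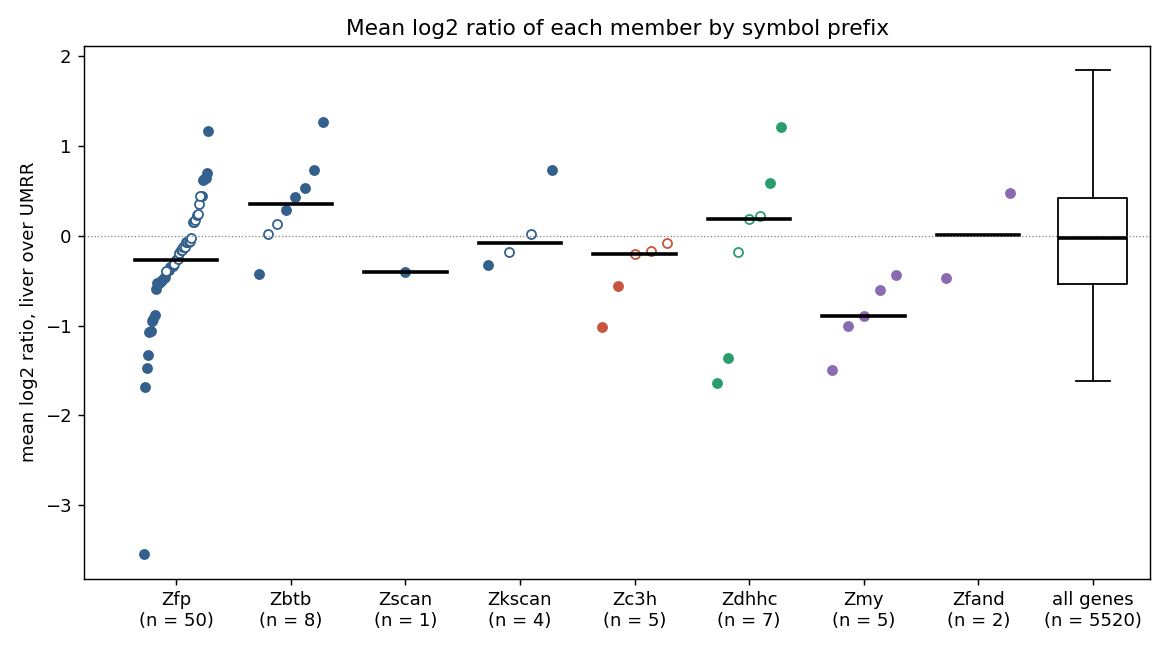
Mean log2 ratio of liver over UMRR for each measured zinc finger gene by symbol prefix, with filled points past the test, open points not past it and a bar at the median. The box shows all 5520 genes with quartiles and the 5th and 95th percentiles. The 5 Zmy genes all lie below 0, while Zdhhc genes lie between -1.64 and 1.22.

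The windows around the transcription start of 4 members are shown to set genes of opposite ratios side by side. They are those of the 2 highest and 2 lowest called protein-coding genes with 1 window in the RefSeq table (build GRCm38.p6), Zdhhc6 (chr19:55315987-55316286, minus strand), Zfp787 (chr7:6155916-6156215, minus strand), Zfpl1 (chr19:6084926-6085225, minus strand) and Zdhhc3 (chr9:123113145-123113444, minus strand). Each runs 5′ to 3′ from 250 bases before the start to 50 after it. Capitals mark the GC box (GGGCGG), the CCAAT box (CCAAT) and the TATA box (TATAAA), searched on both strands with no overlap among the matches found.
Zdhhc6: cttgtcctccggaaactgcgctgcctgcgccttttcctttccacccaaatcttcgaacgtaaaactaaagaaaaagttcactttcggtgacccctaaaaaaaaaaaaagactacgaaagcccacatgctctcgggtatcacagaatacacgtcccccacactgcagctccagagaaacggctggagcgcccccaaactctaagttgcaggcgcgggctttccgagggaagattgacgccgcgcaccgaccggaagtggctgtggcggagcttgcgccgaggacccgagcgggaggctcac
Zfp787: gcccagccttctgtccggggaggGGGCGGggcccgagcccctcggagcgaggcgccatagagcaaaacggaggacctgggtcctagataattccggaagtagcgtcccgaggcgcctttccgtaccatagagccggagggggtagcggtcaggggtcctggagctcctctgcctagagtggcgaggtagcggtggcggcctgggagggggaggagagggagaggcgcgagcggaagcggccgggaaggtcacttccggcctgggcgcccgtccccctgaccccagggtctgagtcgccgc
Zfpl1: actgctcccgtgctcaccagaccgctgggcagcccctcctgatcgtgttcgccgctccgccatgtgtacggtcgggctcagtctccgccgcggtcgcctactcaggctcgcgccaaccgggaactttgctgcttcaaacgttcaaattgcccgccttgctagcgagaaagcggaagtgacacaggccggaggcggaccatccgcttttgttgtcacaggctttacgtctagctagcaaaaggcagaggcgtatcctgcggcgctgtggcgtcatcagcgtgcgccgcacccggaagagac
Zdhhc3: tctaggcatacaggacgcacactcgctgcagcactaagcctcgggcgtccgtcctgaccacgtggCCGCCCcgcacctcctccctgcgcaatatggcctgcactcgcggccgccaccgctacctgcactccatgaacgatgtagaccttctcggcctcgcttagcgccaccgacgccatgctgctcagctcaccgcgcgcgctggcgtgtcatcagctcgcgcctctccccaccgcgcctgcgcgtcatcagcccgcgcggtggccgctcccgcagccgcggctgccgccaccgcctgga
A GC box was found in the windows of Zfp787, which was higher in liver, and Zdhhc3, which was lower, and none of the 3 motifs in those of Zdhhc6 and Zfpl1. The windows held 24, 27, 31 and 39 CpG pairs for Zdhhc6, Zfp787, Zfpl1 and Zdhhc3. Of 125 members, 106 had a window. A GC box was present in 56.6% of these, against 46.3% of 17491 protein-coding genes, a CCAAT box in 41.5% against 39.0%, and a TATA box in 10.4% against 13.3%. The median number of CpG pairs was 19 for the members and 13 for protein-coding genes. Against all 27025 genes with a window, noncoding ones included, the gap was wider (GC box 35.9%, median of 7 CpG pairs), and the protein-coding comparison was chosen after both were seen. Among called members with a window, 8 of 12 higher and 17 of 29 lower ones held a GC box, with a median of 21.5 and 21 CpG pairs. A match is a run of letters and no evidence of binding.

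Many C2H2 genes lie in clusters, and 27 of the 125 members are on chromosome 7, a share not counted for all genes. Each measured gene was paired with the next measured gene in the reference order of protein-coding genes and members. Other noncoding genes and pseudogenes were left out of that order. Of these pairs, 9 had at most 2 genes of that order between them, 5 of them adjacent in it. In 2 of the 9 pairs both genes were lower in liver. These were Zfp560 with Zfp266 (-0.49 and -0.47) and Zfp626 with Zfp974 (-0.38 and -0.59). Zfp560 and Zfp626 lost their calls without array 2 or array 3 (limma, adjusted p for Zfp626 = 0.136 and 0.144). The call of Zfp560 also ended when the median probe was used. In 2 pairs the calls were opposite, which were Zscan12 with Zkscan3 and Zkscan14 (-0.33) with Zfp655 (0.64). Of the 82 measured members, 45.1% were lower and 18.3% higher wherever they lay. Neighbouring pairs of all genes were not counted, so these counts show no trait of neighbours. Zfp820 (-0.52) and Zfp942 (-0.95), on either side of Zfp995, were both lower too and were not counted as a pair. Related C2H2 genes have similar sequences, so a probe can take up RNA of more than 1 of them, and single values in such clusters are uncertain.

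Several genes were read by more than 1 probe, and these probes disagreed for some. Of 20 members with at least 2 measured probes, 6 had probe means at least 1 log2 unit apart, and 5 had means on both sides of 0. The same was found for 211 and 343 of 1328 such genes in all. The median spread was 0.40 for the members and 0.34 for all genes. Zfp560 had the widest, with probe 1063 at -1.93, -1.55 and -1.41 and probe 4158 at -0.82, -1.41 and -1.16. Its other 3 probes had means of 0.072, 0.096 and 0.13, and its call as lower in liver (-0.49 ± 0.18, SD, n = 3) ended when the median probe was used (0.0057, adjusted p = 0.973).

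For 3 genes, single probes were called in opposite directions. Opposite calls were not counted over all genes, so whether this is particular to zinc finger genes is not known here. Zfp329 was at -1.08, -0.79 and -0.82 on probe 6614 and at 0.55, 0.33 and 0.23 on probe 6064. Zfp654 was at -0.14, -0.47 and -0.45 on probe 5234 and at 0.59, 0.69 and 0.85 on probe 11661. Zfp830 was at -0.51, -0.72 and -0.68 on probe 6657 and at 0.27, 0.42 and 0.48 on probe 4135. The probes of each gene did not overlap on any array, so the mean of a gene stands for neither, and the call of Zfp329 as lower (-0.26 ± 0.035) rests on that mean. It was lost without array 2 (0.158) or array 3 (0.279), as was that of Zfp560 (0.0505 and 0.0726), each an adjusted p.

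Probes that share 1 sequence record in the annotation were closer. In Zfp957, Zfp639 and Zmynd11, 8 such pairs of probes had a median difference of 0.12 and a largest of 0.26. The 30 pairs of the other kind, in 17 genes, had a median of 0.57, and 11 of them were at least 1 apart. Zfp560, with 5 measured probes, enters many of these pairs, and its probes 1063 and 4158 lay more than 1 from the rest. Pairs of the same gene are not independent. Over all genes the medians were 0.13 for 449 pairs and 0.21 for 5068 pairs, and 417 of the 5068 were at least 1 apart. The cause of the differences was not tested.

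**Figure D3:**
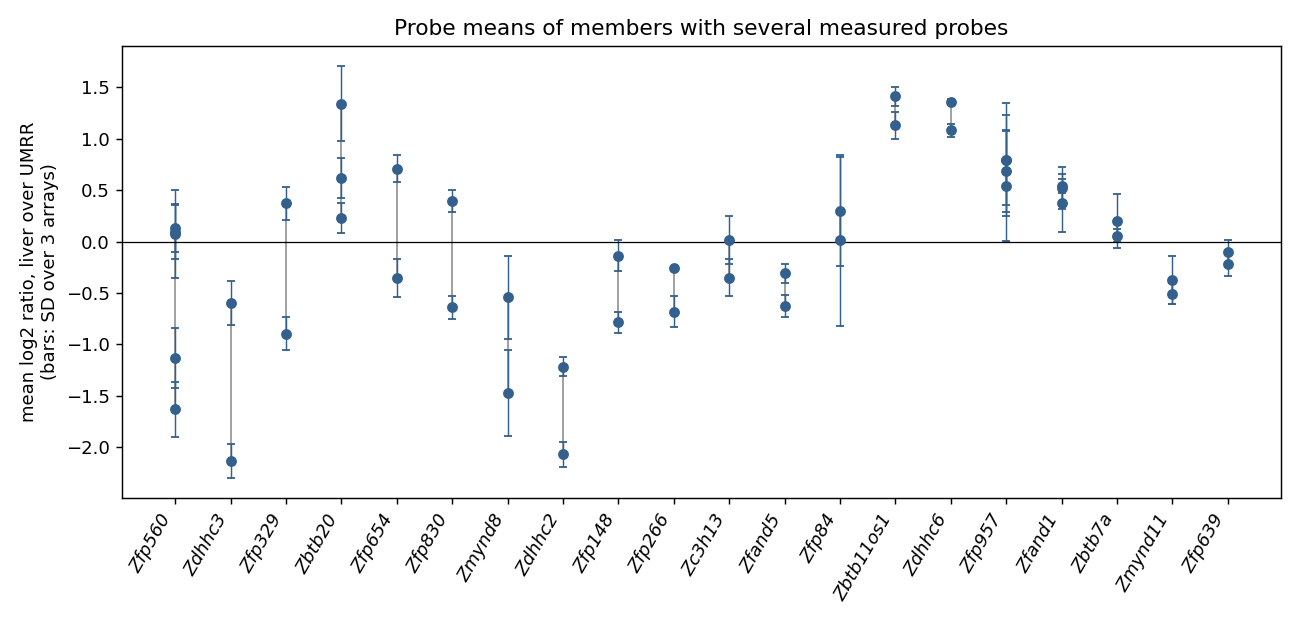
Mean log2 ratio of liver over UMRR of each measured probe for the 20 zinc finger genes with several, with the SD over 3 arrays as bars and a line joining the probes of a gene. Genes run from the widest spread (Zfp560, 1.76) to the narrowest (Zfp639, 0.11).

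The arrays were not equally close over these genes. Over the 82 genes, which share the same RNAs and are not independent replicates, arrays 2 and 3 had a Pearson's r of 0.98. Array 1 had an r of 0.86 with array 2 and of 0.88 with array 3. The SD of the difference was 0.17 for arrays 2 and 3, 0.40 for arrays 1 and 2 and 0.37 for arrays 1 and 3. Zfp593, whose yeast relative acts in the export of ribosomal subunits, is an example, with -1.62 on array 1 against -0.56 and -0.61 on the others. Without array 1, 57 genes passed, 16 higher and 41 lower, which included all 52 of the fit on 3 arrays. Without array 2, 41 passed (15 higher, 26 lower) and without array 3, 37 passed (14 higher, 23 lower), with 13 and 16 of the 52 lost. Of all 5520 genes, 72.5%, 52.8% and 49.9% passed without arrays 1, 2 and 3, so the counts moved for all genes too. The 36 zinc finger genes called the same way in all of these fits comprised 13 higher and 23 lower in liver. The same count over all genes is not given here.

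**Figure D4:**
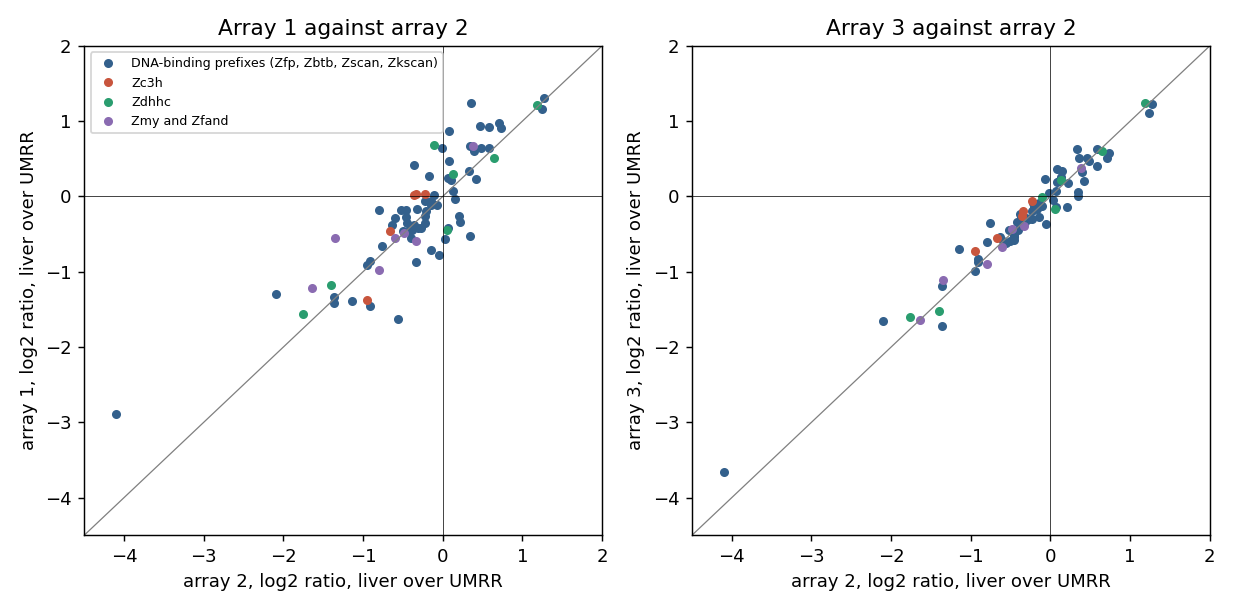
Log2 ratio of liver over UMRR on array 1 (left panel) and array 3 (right panel) against array 2 for the 82 zinc finger genes, with the line of equality. Points scatter more widely in the left panel, where the SD of the difference is 0.40, than in the right panel, where it is 0.17.

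Partners of these proteins were compared from lists of known functions. KRAB zinc finger proteins silence DNA through a corepressor complex with heterochromatin proteins and deacetylases. Of 13 listed genes of that kind, 9 had a probe and 7 were measured on all 3 arrays. Trim28, Setdb1 and Atf7ip were listed and were not among the 7, so the complex was seen in part only. Of the 7, 5 were lower in liver (all genes 33.9%) and 2 did not pass. The median was -0.90 against -0.028 for all genes. Proliferation genes were lower too, 5 of 5 measured (all genes 33.9%, means -4.15 to -1.43), and their part in these ratios was not tested. Uhrf1, which links DNA methylation to replication, was at -2.33, -2.93 and -2.82, and Cbx5, the heterochromatin protein HP1 alpha, at -1.11, -1.33 and -1.15. Hdac1 was the third lowest, and Cbx1 (-0.90) and Smarcad1 (-0.40) were lower too. Chd4 (-0.060 ± 0.087) and Dnmt1 (-0.25 ± 0.10) did not pass.

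Of the partners of BTB proteins, Bcor, a corepressor, was higher (0.15, 0.72 and 0.58) and Hdac3 lower (-0.59, -0.38 and -0.45). The call of Bcor depended on arrays 2 and 3, with an adjusted p of 0.107 when array 2 was left out and 0.0984 when array 3 was. Some Zc3h proteins act in mRNA decay, though no such role is given above for the measured ones. Genes of mRNA decay and binding were lower for 5 of 9 (all genes 33.9%) and higher for 2 (all genes 30.1%). The other 2 did not pass, and the median was -0.38 against -0.028 for all genes. Pabpc1, the poly(A)-binding protein, stood at -1.20 ± 0.42 (SD, n = 3) and Cnot7, a deadenylase, at 1.16 ± 0.074.

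Genes that remove palmitate or assist DHHC enzymes were higher in 4 of 5 cases (all genes 30.1%) and lower in 1 (all genes 33.9%). The median was 0.79 against -0.028 for all genes. Abhd17c, a depalmitoylase, was at 1.50, 1.31 and 1.35, and Ppt2, a lysosomal thioesterase, at 0.69, 1.07 and 1.09. Selenok, the selenoprotein that works with Zdhhc6, was at 0.60, 0.39 and 0.56, on the liver side as Zdhhc6 was. Abhd17b went the other way (-0.53 ± 0.17, SD, n = 3).

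Zinc finger factors under other names included some with wide ratios. Of 8 measured, 3 were higher (all genes 30.1%), 4 lower (all genes 33.9%) and 1 did not pass. The median was -0.21 against -0.028 for all genes. Klf15, a regulator of amino acid and glucose metabolism, was at 3.55, 4.25 and 4.12. Gata6, given above, was the lowest with a mean of -3.20 ± 0.25 (SD, n = 3). Klf9 (2.21) and Klf3 (0.58) were the other higher ones, and Ikzf5, Sp3 and Sp4 the other lower ones (-0.33, -0.50 and -0.61).

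Some markers of other cells also differed between the RNAs, beside the proliferation genes given above. Acinar genes of the pancreas were higher for 6 of 6 (0.53 to 5.55) and erythroid genes for 3 of 5 (0.22 to 4.94), against 30.1% of all genes. Of the testis and germ cell list 2 of 5 were higher and 3 did not pass (0.033 to 0.48), a share near that of all genes. Of 2 lymphocyte genes Ighm was higher (1.65) and Pou2af1 lower (-2.69). Their part in the ratios of the zinc finger genes was not tested. In bulk RNA, fewer cells of a type and less RNA per cell cannot be told apart, and neither can liver from the other cells in the purchased RNA.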

How the data were processed

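The authors deposited a single processed number for each probe of an array, taken as log2 of Cy5 (liver) over Cy3 (UMRR) with the dyes taken per the labels. The scanner, background correction, dye normalization and base of the logarithm are unknown from the sources used here. The study used 2 colours with 1 dye orientation, and intensities were not used, so no filter on dim probes was made. Probes were named by the platform annotation, and 125 of 125 member symbols matched the RefSeq table (GRCm38.p6) by gene identifier with 0 changed.

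Exact 0 was taken as no ratio. Probes measured on 3 arrays were averaged per gene and array, and an intercept was tested two-sided with lmFit and eBayes (limma 3.58.1, R 4.3.3) over 5520 genes with Benjamini-Hochberg adjustment at 0.05. The fit was tested on simulated data with independent noise, a setting without deviations shared by the genes of an array. Members and lists were chosen with earlier results of these data known. Named genes were the 8 highest and 8 lowest called members, the ends of each prefix, all measured Zc3h and Zdhhc genes, genes with probes 1 or more apart, genes of 2 arrays with an absolute mean of 1 or more and the 2 most extreme called genes of each partner list. Other genes were named after their values were seen. Also chosen after values were seen were the neighbour pairs, the probe pairs that share a record, the promoter windows and motifs, and the protein-coding genes as the motifs' comparison in place of all genes. Alternatives were centring, scaling, the handling of zeros and probes, each array left out, the variance model, the threshold and a 2-fold null. A count of protein motifs was planned and was not made here.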

Additional observations from a re-analysis of the deposited data

How the results depend on the processing

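The counts of zinc finger genes past the test, 52 with 15 higher and 37 lower, stayed within 1.5 times under centring, scaling, the median probe, probes on at least 2 arrays, eBayes with trend and robust, a threshold of 0.01 and removal of probes with high SD. Leaving out 1 array gave 37 to 57 past the test (all genes 49.9% to 72.5%), 14 to 16 higher and 23 to 41 lower. With exact 0 as a ratio of 1, which lets in 125 genes, 33 passed and 7 were higher. Without moderation of the variance 28 passed, 7 higher and 21 lower. Against a 2-fold difference (limma treat) 6 passed, 0 higher and 6 lower, with 2 higher and 7 lower at an unadjusted p under 0.05. The unadjusted count was not made over all genes. In the fit on single probes, which counts probes and not genes, 71 of 109 member probes passed, against 64.9% of all 9910 probes. Of these 71, 25 were higher and 46 lower. The background fell too, to 29.9%, 37.8% and 14.8% of all genes with zeros kept, without moderation and against 2-fold. The median of the members was -0.064 with zeros kept and -0.21 to -0.27 with an array left out. The median of the DNA-binding families was -0.15 after centring, -0.16 with probes on at least 2 arrays, -0.16 by median probe, -0.023 with zeros kept, -0.10 on single probes and -0.17 to -0.26 with an array left out. It was -0.18 without Zbtb8os, Zbtb11os1, Zfpl1 and Zfp185, an alternative added after seeing the data, as were the Zc3h median without Zc3hc1 (-0.38) and the Zbtb median without Zbtb8os and Zbtb11os1 (0.21 against 0.36 with them). The Zdhhc median was 0.0012 both with probes on at least 2 arrays and on single probes, 0 with zeros kept, and -0.055 to 0.26 with an array left out, and the Zc3h median was -0.12 to -0.31. The sign turned for Zdhhc13 without array 1 (-0.058, to 0.34 without another array), Zfp560 by median probe (0.0057) and on probes 1110, 5916 and 13140 (0.072, 0.13 and 0.096), Zc3h13 on probe 10648 (0.017), Zfp329 on probe 6064 (0.37), Zfp654 on probe 5234 (-0.35) and Zfp830 on probe 4135 (0.39). Without moderation of the variance 13 named genes lost their calls (adjusted p = 0.0522 to 0.181), which were Zbtb20, Zfp957, Zfp655, Zfp296, Zfp451, Zbtb21, Zkscan14, Zc3h11a, Zmynd11, Zfand1, Zfp560, Bcor and Pabpc1. With exact 0 as a ratio of 1, all of these but Zbtb20 and Zmynd11 lost theirs, 11 in all (up to 0.878). Zfp329 lost its call after centring (0.0607). The cause was not tested. No paired analysis was possible because all arrays form 1 group. Moving Zfp36 genes between families was not run, since 0 of them are members. The depth behind a ratio is unknown without intensities.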
